A study of Mus musculus with 8 samples.

Results

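Of 101701 regions of open chromatin in 4 stages of mouse cell reprogramming, 6968 carried an ATAC-seq peak both at day 5 and at day 10 of reprogramming and none in the starting fibroblasts or in embryonic stem cells (ESCs). They are 6.85% of the regions, with a 95% Wilson interval of 6.70 to 7.01. The regions were chosen by these peaks alone. Peaks no more than 400 bp apart were merged over the 4 lists, and a merged region was a member when the day 5 and day 10 lists each had a peak in it and the other lists had none. Peak presence, fold enrichment, rank, width and the overlap of the peaks of both days are therefore given as descriptions with no test.

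ATAC-seq measures where a transposase can insert adapters into DNA, so a peak marks accessible chromatin. The study compared mouse embryonic fibroblasts (MEFs), the same kind of cells at day 5 and day 10 after retroviral delivery of OSKM, the factors OCT4 (Pou5f1), SOX2, KLF4 and MYC, and lastly ESCs, with 2 libraries a group and 8 in all. All groups were wild type for Jmjd3, the histone demethylase gene that the study varied elsewhere. MEFs received no factor and grew in DMEM with serum, whereas the cells of both OSKM days had in addition a FLAG control vector and stood, once infected, in ESC medium with vitamin C. MEFs, both OSKM groups and ESC replicate 2 had the strain label C57BL/6J-OG2, a line whose Oct4-GFP transgene is driven by Pou5f1 sequence, and ESC replicate 1 had the label C57Bl6J. The labels put ESCs on a feeder layer, whereas the methods put the ESCs used for ATAC-seq on gelatin in 2i/L medium. Medium and cell state therefore cannot be told apart in any class that rests on ESCs. Between MEFs and the OSKM days, medium, vitamin C and viral infection likewise cannot be told apart from the effect of the factors. An OSKM culture holds cells on different routes, and a site open in few cells cannot be told apart from one open weakly in many.

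The labels were checked at marker genes. All 6 MEF markers, including Prrx1, Col1a1 and Thy1, had a MEF peak within 1 kb of a start site, against 5 of 6 on each OSKM day and 3 of 6 in ESCs. All 6 ESC markers, including Nanog, Esrrb and Zfp42, had an ESC peak there, against 2 of 6 in each of the other groups. Only 1 peak list per group was deposited, so the spread between libraries is unknown. Every interval below covers counting error only, over regions that share the same 8 libraries.

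As background, OCT4 belongs to the POU family, whose factors read an octamer sequence, SOX2 to the HMG-box family, and KLF4 to a zinc finger family that reads C-rich boxes. OCT4 and SOX2 can bind side by side on a composite of both their sequences, and in ESCs they do so at many enhancers. In early reprogramming the introduced factors also occupy sites that are not used in either end state, and fibroblast enhancers, often with AP-1 or TEAD sequences, close.

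The searched sequences were CCATTGT or CCTTTGT for SOX, ATGCAAAT for the octamer, CCACACCC, CCACGCCC, CCCCACCC or CCCCGCCC for KLF, TGACTCA for AP-1, and ACATTCCA, ACATTCCT, GCATTCCA or GCATTCCT for TEAD. The OCT4-SOX2 composite was CATTGT, 1 base of any kind, then ATGCAAA, with up to 2 of its 13 set letters changed. Both strands were read over 200 bp, centred on the middle of the widest peak of a region. A composite can overlap a SOX or octamer match, and 1 stretch of DNA can then count for more than 1 motif. A match describes the letters, and does not show that a factor was bound.

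Of the 6968 member windows, 317 (4.55%) had a composite, 807 (11.6%) had a KLF match and 23 had both. Whether 23 is more or less than the separate shares would give was not tested. In these 23 windows, letters read by 3 of the 4 introduced factors stood within 200 bp. The 6 with the highest fold enrichment on their weaker day are printed to show how the matches lie, from the 17 such windows that were outside exons, had at most 50% of bases repeat-masked and could be shown. Sequences are the forward strand of GRCm38 (mm10), and capitals mark SOX, octamer, composite, KLF and AP-1 matches, with touching matches run together.
chrX:17547593-17547792, between genes, 23.5 kb from the Fundc1 start: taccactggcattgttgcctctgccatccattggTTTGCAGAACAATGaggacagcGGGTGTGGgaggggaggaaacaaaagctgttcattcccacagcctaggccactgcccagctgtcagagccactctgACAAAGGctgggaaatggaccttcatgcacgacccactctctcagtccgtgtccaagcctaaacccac
chr3:41901059-41901258, between genes, 149 kb from D3Ertd751e: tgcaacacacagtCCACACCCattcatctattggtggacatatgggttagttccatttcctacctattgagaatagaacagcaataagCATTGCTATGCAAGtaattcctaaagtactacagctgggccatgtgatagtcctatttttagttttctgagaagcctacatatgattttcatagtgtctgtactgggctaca
chr15:93189303-93189502, between genes, 85.5 kb from Gxylt1: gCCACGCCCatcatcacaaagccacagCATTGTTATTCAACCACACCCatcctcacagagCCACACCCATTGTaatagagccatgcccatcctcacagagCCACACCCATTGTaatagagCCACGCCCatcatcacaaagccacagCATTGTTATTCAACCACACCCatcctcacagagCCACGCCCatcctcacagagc
chr11:29670649-29670848, between genes, 21.9 kb from Rtn4: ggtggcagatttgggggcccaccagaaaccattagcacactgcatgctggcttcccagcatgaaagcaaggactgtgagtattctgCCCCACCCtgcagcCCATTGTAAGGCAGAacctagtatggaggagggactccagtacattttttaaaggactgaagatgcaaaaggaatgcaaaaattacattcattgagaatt
chr1:55868142-55868341, between genes, 166 kb from Plcl1: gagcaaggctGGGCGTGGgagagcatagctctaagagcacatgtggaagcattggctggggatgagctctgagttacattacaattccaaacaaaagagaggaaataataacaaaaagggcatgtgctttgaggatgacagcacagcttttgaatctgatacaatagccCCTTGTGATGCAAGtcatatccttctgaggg
chr19:29194239-29194438, between genes, 56.9 kb from Jak2: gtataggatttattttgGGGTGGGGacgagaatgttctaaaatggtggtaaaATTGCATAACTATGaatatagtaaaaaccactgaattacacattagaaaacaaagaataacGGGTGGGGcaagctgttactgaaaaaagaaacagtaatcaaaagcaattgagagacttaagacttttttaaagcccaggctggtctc

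All 6 lay between genes. The window on chromosome 15 differed from the rest, since the same short unit recurs along it and gives 7 KLF and 2 composite matches. The others held 1 composite each with 1 or 2 KLF matches. Fold enrichment, the authors' ratio of a peak over its background, was 5.25 at day 5 and 4.24 at day 10 for the window on chromosome X. The value was 6.09 and 4.21 for the window on chromosome 3, and 5.34 and 3.84 for the window near Jak2, which encodes a kinase of cytokine signalling. The windows near Rtn4 (3.96 and 4.14) and Plcl1 (3.87 and 4.19) were instead higher at day 10.

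A second set shows the members with the strongest peaks. The 3 with the highest fold enrichment on the weaker day are given first, and then the 1 among the first 12 whose window held both an octamer and a composite. That last window was chosen after its values were seen.
chr8:15519842-15520041, between genes, 401 kb from Myom2: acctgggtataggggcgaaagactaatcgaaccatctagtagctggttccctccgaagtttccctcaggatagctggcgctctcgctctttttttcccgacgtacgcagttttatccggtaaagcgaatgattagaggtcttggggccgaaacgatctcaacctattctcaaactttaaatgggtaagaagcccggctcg
chr15:50417472-50417671, between genes, 410 kb from Trps1: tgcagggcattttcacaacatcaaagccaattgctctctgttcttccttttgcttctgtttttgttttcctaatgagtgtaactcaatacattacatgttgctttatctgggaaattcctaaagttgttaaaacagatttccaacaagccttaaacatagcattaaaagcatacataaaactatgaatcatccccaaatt
chr5:104470990-104471189, intron of Pkd2: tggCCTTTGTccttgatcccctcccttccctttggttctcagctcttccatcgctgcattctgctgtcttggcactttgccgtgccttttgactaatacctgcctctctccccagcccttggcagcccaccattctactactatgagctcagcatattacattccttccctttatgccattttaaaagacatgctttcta
chr10:74342267-74342466, intron of Pcdh15: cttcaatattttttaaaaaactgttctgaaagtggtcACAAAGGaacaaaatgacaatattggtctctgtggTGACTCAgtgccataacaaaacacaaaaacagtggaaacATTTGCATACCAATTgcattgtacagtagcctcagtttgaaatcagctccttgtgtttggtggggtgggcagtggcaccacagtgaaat

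The strongest member, chr8:15519790-15520093, stood apart with a fold enrichment of 9.93 at day 5 and 10.95 at day 10, ranked 80 and 21 in the 2 lists by score. It held none of the 6 motifs and no repeat-masked base. Runs of 32 bases from its window recurred in 20 other stretches of 10 kb on 13 chromosomes, and the part of these copies in its fold enrichment was not tested. Of the next 11 members, 10 had no 32-base run elsewhere in the genome, and the exception, in an intron of Fchsd2, shared runs with 6 stretches. After the first, weaker-day values fell to between 5.54 and 6.06, in a continuous series with no further gap.

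Most of the first 12 lay far from start sites, between genes or in introns. The Pcdh15 member (6.33 at day 5, 5.74 at day 10) carried in 1 window an AP-1 match, a SOX match and an octamer fused with a composite. Pcdh15 encodes a protocadherin of hair cells and retina, and 10 members overlapped its gene body. Other members stood 60.9 kb from the nearest start site of Nfib, a nuclear factor of brain and lung development (6.33 and 5.78), 331 kb from Grm7, a glutamate receptor (5.75 and 5.86), and 114 kb from Pou4f1, a sensory neuron factor (6.03 and 5.72). The member with the highest day 5 rank among the 12, place 23 of 36219, lay 1160 kb from Cdh8, which encodes a cadherin, and its fold enrichment was 7.76 at day 5 and 5.56 at day 10. The Rspry1 member was centred in an exon, as were 325 members (4.66%) in all.

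The members made up 42.5% of the 16389 regions that were open on either day and closed in MEFs and ESCs, and 25.7% of the 27153 regions open on both days. Of those 27153, 51.8% (14071) were open in all 4 groups. Members made up 19.3% of the 36043 day 5 regions and 19.8% of the 35117 day 10 regions. In comparison, 5933 regions were open at day 5 only and 3488 at day 10 only. A further 2350 were open on both days and in ESCs and closed in MEFs, and are called ESC sites open on both days here.

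Fold enrichment over the members ranged from 2.18 to 9.93 at day 5, with a median of 3.94 and quartiles of 3.41 and 4.60. At day 10 it ranged from 1.87 to 10.95, with a median of 3.37 and quartiles of 3.01 and 3.82. The day 10 value was the higher for 19.6% of the members, against 32.2% of the regions open in all 4 groups and 25.3% of the ESC sites open on both days. The median ratio of day 10 to day 5 was 0.859 for the members, 0.937 for regions open in all groups and 0.885 for the ESC sites. Each list was scored on its own, and since the depth of the libraries is unknown, these ratios hold only beside each other.

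In rank by score the members sat in the middle of both lists. Their median rank was 44.3% of the way down the day 5 list and 57.2% down the day 10 list, whereas the regions open in all 4 groups were at 35.0% and 25.1%. Both peaks lay in the top 10% of their lists for 97 members (1.39%) and in the top 50% for 2140 (30.7%). A weaker-day −log10 q under 2 was found for 1088 (15.6%), against 5.39% of regions open in all groups. Regions open on 1 day only ranked lower still, with medians of 70.8% at day 5 only and 80.4% at day 10 only.

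**Figure D1:**
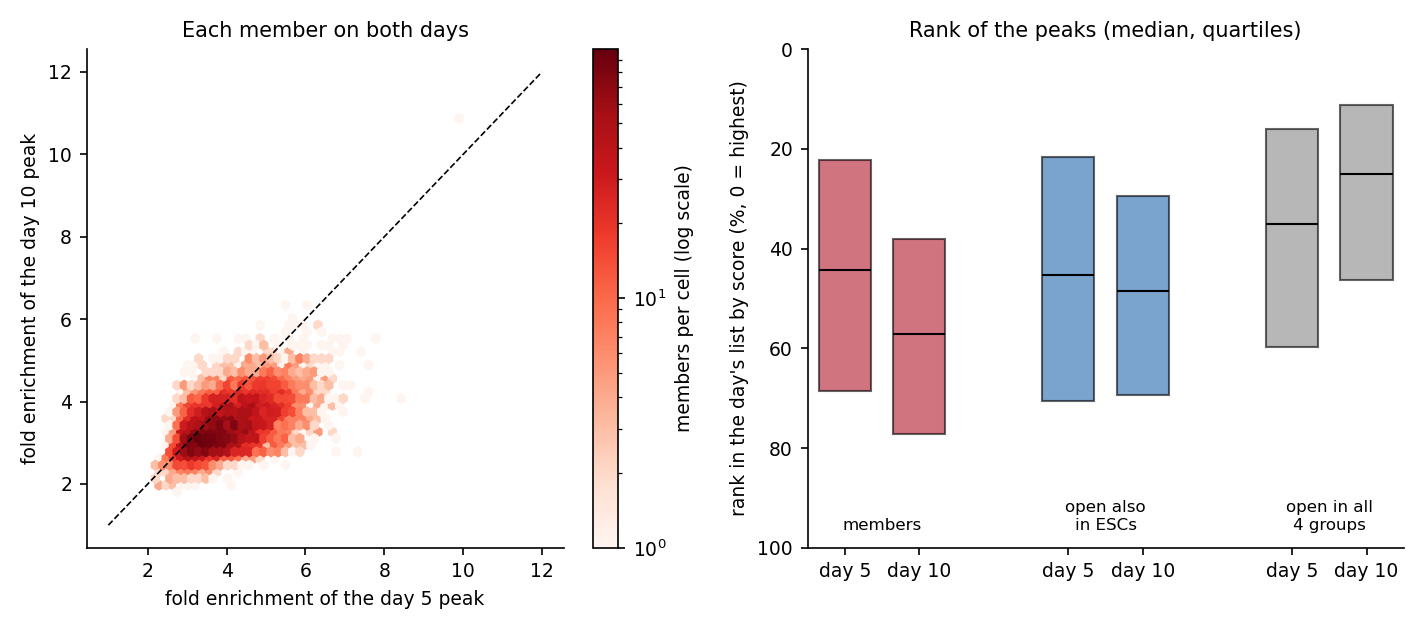
Left, fold enrichment of the day 5 peak (x axis) against that of the day 10 peak (y axis) for the 6968 members, shaded by members per cell, with a dashed line of equal values. Most members lie under the line, with medians of 3.94 and 3.37, and 1 member stands apart at the upper right. Right, rank of the peaks in each day's list in percent (0 is the highest score), where boxes span the quartiles and lines are medians, for members, ESC sites open on both days and regions open in all 4 groups.

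In most members the peaks of both days overlapped, which the merging of nearby peaks favours. A member was 139 to 3129 bp wide, with a median of 712 bp, and 99.8% had 1 peak on each day. The peaks of both days overlapped in 99.6% of the members and shared at least 50% of both peaks in 82.8%. The median member shared 69.1% of the bp covered on either day. More peak bp at day 10 were found for 49.3% of the members. The share was 76.5% among regions open in all 4 groups and 64.8% among ESC sites open on both days. The members were narrower than regions open in all groups (median 1335 bp) and wider than those open at day 5 only (398 bp) or day 10 only (400 bp), although a region of more peaks is wider by construction.

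The border of the rule touched few members. The nearest MEF or ESC peak was 402 bp away at the closest and 9564 bp away in the median. It lay within 500 bp for 28 members and within 1000 bp for 228. Just inside the border, the 123 members 401 to 800 bp from such a peak had a median weaker-day fold enrichment of 3.08, against 3.30 for the other members. Just outside it, 147 of the 20185 regions left out for a MEF or ESC peak had that peak beside, and not over, the peaks of day 5 and day 10. Their median was 3.03. MEF peaks came within 10 kb of 39.1% of the members and ESC peaks of 30.7%.

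The members lay mostly away from promoters. A start site was within 1 kb of 452 members (6.49%), against 21.3% of all merged regions, and within 5 kb of 1524 (21.9%, 95% interval 20.9 to 22.9), against 36.6%. The median distance was 16716 bp to any start site and 42351 bp to a protein-coding one. The centre lay in an intron for 52.4%, between genes for 43.0% and in an exon for 4.66%, while exons held 12.4% of all merged regions. All merged regions include the 14071 open in all 4 groups, which the rule leaves out, and their part in these contrasts was not tested. Position itself was not used by the rule, so it was compared between classes by Newcombe intervals adjusted for 3 sets. The share within 5 kb was 3.69 percentage points higher than in regions of day 5 only (18.2%, interval of the difference 1.99 to 5.37). It was lower than in regions of day 10 only (30.4%, difference −8.55 points, −10.8 to −6.35) and than in ESC sites open on both days (30.0%, difference −8.13 points, −10.7 to −5.61).

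Along the genome the members made up between 5.42% of the merged regions of chromosome 7 and 8.22% of those of chromosome 3. Chromosome X had 173 members, or 1.01 per Mb, while autosomes had 2.08 to 3.15 per Mb. The share of merged regions on X that were members was 7.34%, within the range of the autosomes. None of the 16 regions on chromosome Y was a member. Neighbouring members were a median of 192.9 kb apart, and 557 (7.99%) came within 10 kb of another, in 271 runs of which 14 had at least 3 members.

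The longest such run held 4 members in 24.0 kb at chr14:93693327-93717365, in an intron of Pcdh9, a protocadherin of neurons. Fold enrichment in it was 3.41 to 5.51 at day 5 and 2.90 to 5.85 at day 10. Runs of 3 lay over Necab1 (21.5 kb), over Camk2d, a calcium-dependent kinase of heart and neurons (19.6 kb), 375 kb from Jarid2, a partner of the Polycomb complex PRC2 (16.8 kb), and over Lmbrd2 (15.6 kb). Fold enrichment in the run near Jarid2 was 3.70 to 4.26 at day 5 and 3.69 to 4.56 at day 10. Members of 1 run share their neighbourhood and are not independent.

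Windows of the members were A- and T-rich and poor in CpG. Their GC content was 41.1%, against 41.9% in the windows 1 kb to each side and 47.8% in all merged regions. CpG made up 0.870% of dinucleotides, against 2.18% in all merged regions. That reference includes the regions with a MEF or ESC peak, which the rule leaves out. Repeat-masked bases were 17.3% of the windows and 26.3% of the flanks, and 474 windows were over 50% masked. Regions of day 5 only had the lowest GC content (38.1%), with 45.8% at day 10 only and 45.3% in ESC sites open on both days. Base composition differed in this way between the classes compared below, and its part in the motif differences was not tested.

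SOX, octamer, composite and KLF letters were more frequent in the central window of the members than beside them, while the MYC E-box, given below, was not. A SOX match stood in 1125 windows, or 16.2% (95% interval 15.3 to 17.0), against 7.14% of the windows 1 kb away and 10.1% of all merged regions. The octamer stood in 291 (4.18%, 3.73 to 4.67; flanks 1.42%, all regions 2.19%). The composite stood in 317 (4.55%, 4.08 to 5.06; flanks 0.653%, all regions 1.89%), which is 6.97 times the flanks and the highest ratio of the 6 motifs. The composite ratio also led the 6 in regions of day 5 only (5.38, with flanks at 0.919%) and of day 10 only (3.66, flanks 0.846%). In ESC sites open on both days it led as well (4.38, flanks 1.00%). KLF matches stood in 807 (11.6%, 10.8 to 12.4), 2.77 times the flanks, while all merged regions had 11.1%. In all, 32.2% of the members (31.1 to 33.3) had a SOX, octamer, composite or KLF match, against 12.8% of the flanks and 23.3% of all merged regions.

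AP-1 and TEAD matches, which often mark fibroblast enhancers, were less frequent than in open chromatin as a whole. That reference includes the regions with a MEF peak, which the rule leaves out. The part of this choice in the lower shares was not tested. AP-1 stood in 425 windows (6.10%, 5.56 to 6.69), above the flanks at 2.90% and below all merged regions at 11.4%. TEAD stood in 313 (4.49%, 4.03 to 5.00), against 3.24% and 6.83%. No match to any of the 6 was found in 4243 windows, or 60.9%, against 81.9% of the flanks and 62.7% of all merged regions. Most members therefore held none of these 6 motifs, at a share near that of open chromatin as a whole. The other motifs searched, given below, are not part of this count.

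**Figure D2:**
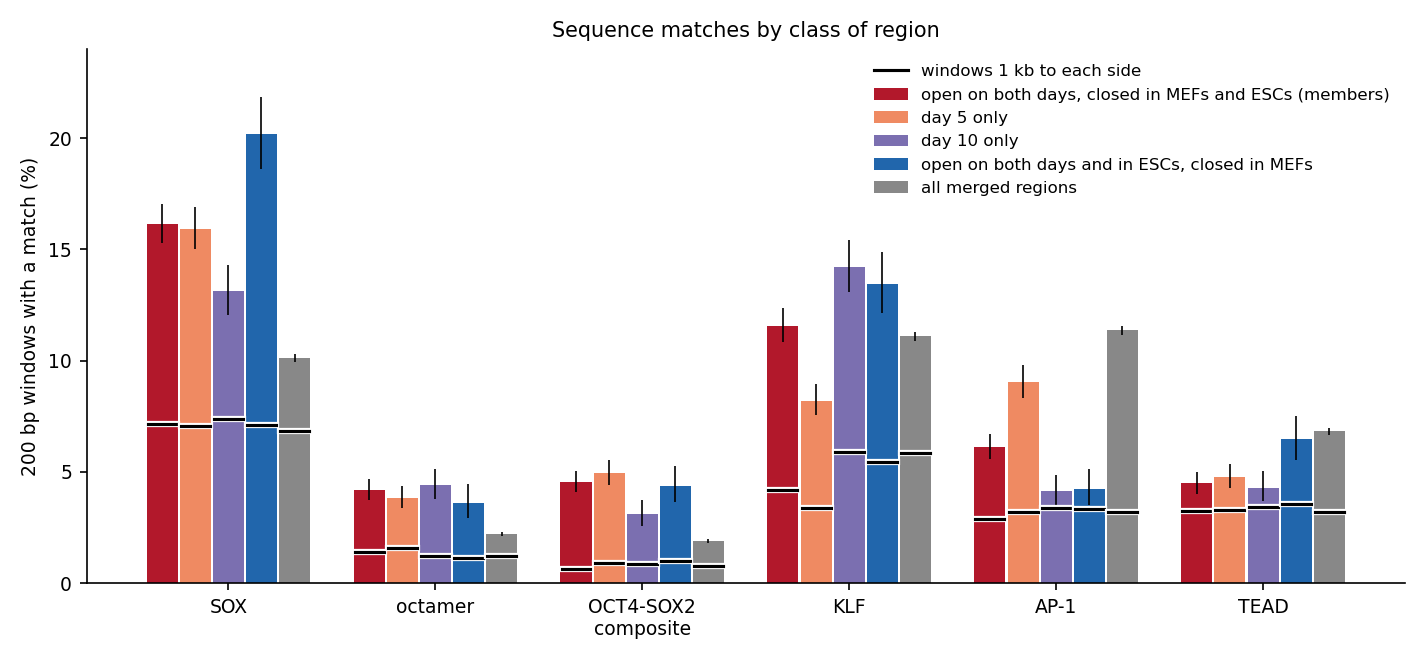
Share of 200 bp windows with a match to each of 6 motifs (y axis, percent), for the members, 3 comparison classes and all merged regions. Error bars are 95% Wilson intervals, and black lines give the windows 1 kb to each side of the same regions. In members the composite stands at 4.55% over a line at 0.653%, and AP-1 at 6.10% lies between day 5 only (9.03%) and day 10 only (4.13%).

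Matches were more frequent near the centre of the members than 400 to 500 bp away, which is outside most members. The highest bin of SOX, the composite and TEAD lay 20 to 60 bp off the centre. In bins of 20 bp, a composite was present in 0.481% of members per bin within 20 bp of the centre and in 0.105% per bin at 400 to 500 bp, a ratio of 4.59. The ratio was 3.04 for the octamer, 2.44 for KLF, 2.21 for SOX and 1.79 for AP-1. TEAD had the flattest profile, with a ratio of 1.33.

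**Figure D3:**
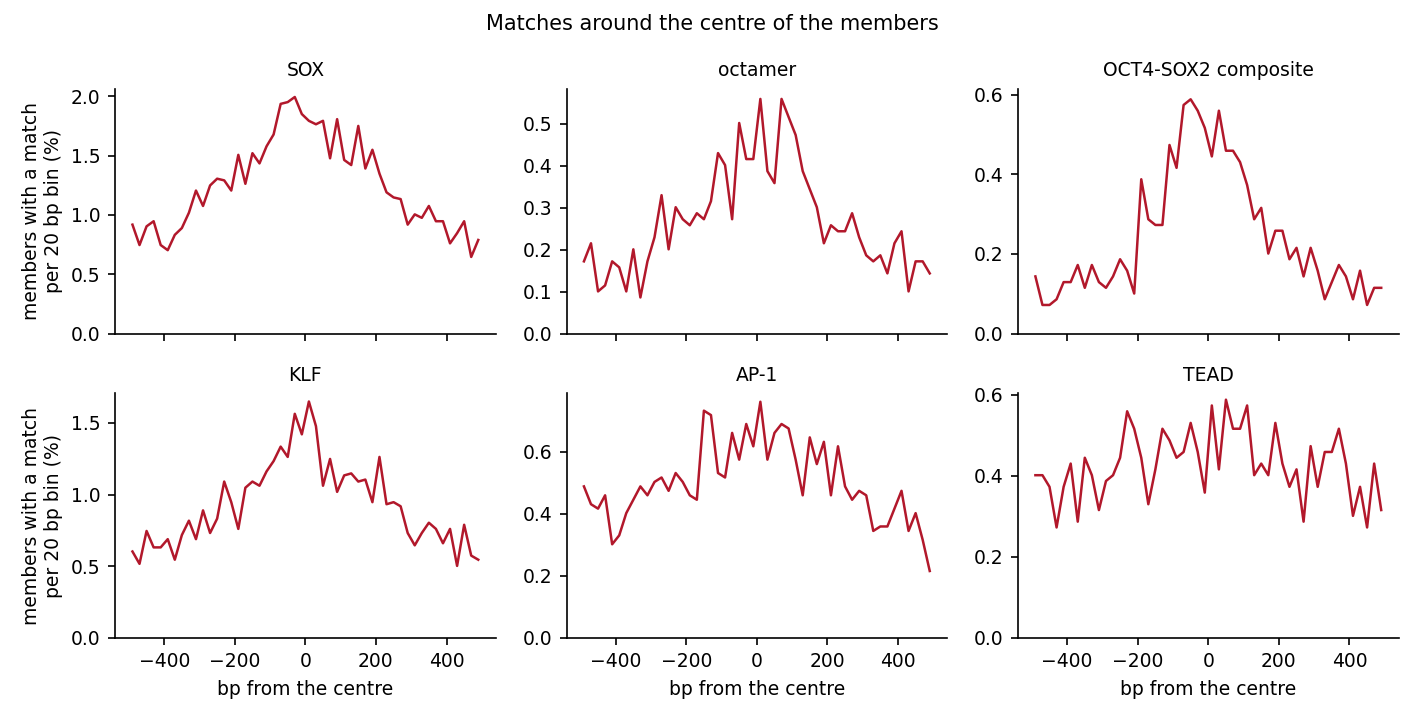
Share of the 6968 members with a match in each 20 bp bin (y axis, percent) by distance from the middle of the widest peak (x axis, bp), with 1 panel per motif and its own scale from 0. SOX, octamer, composite and KLF rise towards the centre, with ratios of centre to edge from 2.21 to 4.59, and TEAD is nearly flat at 1.33.

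The composite was most frequent at 1 spacing of its pieces. With 1 base between the SOX and the OCT4 piece, 317 windows matched. With 0 or with 2 to 10 bases between them, the same letters and the same 2 allowed changes matched in 88 to 153 windows, or 1.26% to 2.20%. In the flanks, the spacing of 1 base gave 0.653%, within the 0.624% to 1.33% of all 11 spacings. The same spacing also led in regions of day 5 only (4.94%, the other 10 spacings at 1.58% to 2.46%), of day 10 only (3.10%, 0.659% to 1.81%) and in ESC sites open on both days (4.38%, 0.936% to 1.45%). No member window had the composite without a change, and 27 (0.388%) had it with at most 1 change, against 4 of 13936 flanking windows (0.0287%).

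**Figure D4:**
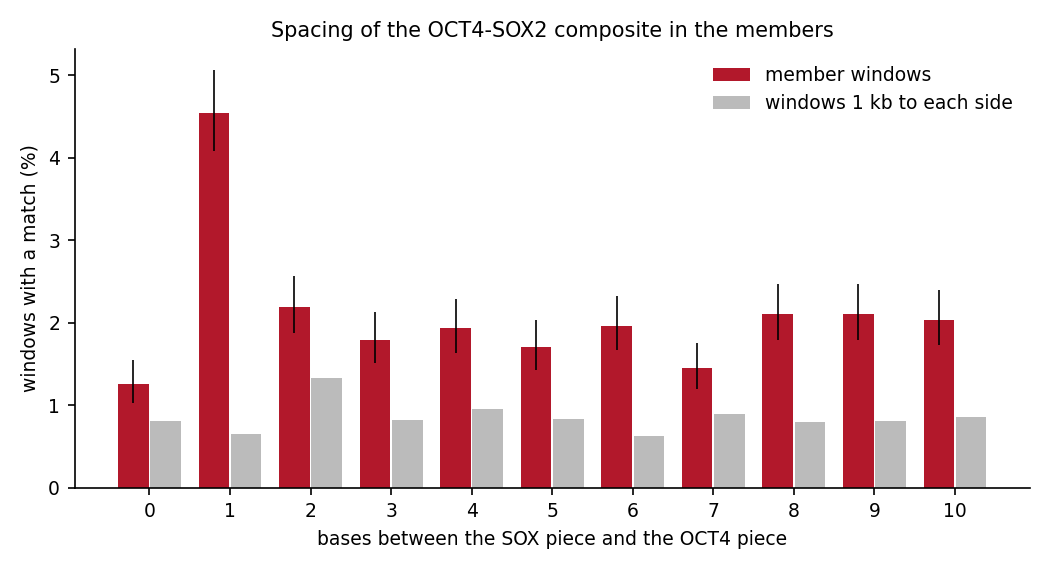
Share of windows (y axis, percent) with the SOX and OCT4 pieces of the composite at each spacing (x axis, bases between the pieces), up to 2 changed letters, for members and for windows 1 kb to each side. Error bars are 95% Wilson intervals. Members stand at 4.55% at a spacing of 1 base and at most at 2.20% at any other.

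An open search gave related letters. Every 8-base word was counted on both strands in member windows and flanks, and the 10 with the highest ratio among the 5833 words in at least 1% of the members are described. CCACACCC, a KLF form, had the highest ratio, at 4.72% of member windows against 1.23% of flanks (3.85 times). AGGGTGTG (3.37%, 3.67 times), CACACCCA (4.94%, 3.34 times) and GCCCCACC (2.11%, 3.16 times) overlap KLF forms. TTGTTATG stood in 2.47% (3.82 times), and its letters form the middle of the composite when the base between the pieces is a T. CTTTGTTA (2.66%, 3.49 times) begins with SOX letters, and ACAATAGC (1.81%, 3.60 times) and CACAATAG (2.02%, 3.57 times) hold ATTGT on the other strand. CATTTGCA (3.56%, 3.35 times) overlaps the octamer, and CTTTTGTC (2.90%, 3.18 times) was the remaining word. None of the 10 contained the AP-1 or TEAD letters. Over all merged regions, CCACACCC stood in 2.73% of windows, AGGGTGTG in 1.92%, CACACCCA in 2.60% and GCCCCACC in 1.95%. For GCCCCACC this was near its share in members. The remaining words stood in 0.786% (CACAATAG) to 1.78% (CATTTGCA) of all merged regions.

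Motifs of other factors were searched as well. A CEBP form (TTGCGCAA, TTGCATAA or TTGCACAA) stood in 2.57% of member windows against 1.21% of flanks and 1.58% of all merged regions. RUNX (TGTGGTTA or TGTGGTTT) stood in 3.10% against 2.34% of flanks and 3.11% of all merged regions, and CAGCTG, an E-box, in 10.2% against 7.50% and 11.5%. The letters of ESRRB, an orphan receptor of ESCs (TCAAGGTCA), stood in 8 windows (0.115%), below the flanks at 0.373% and all merged regions at 0.681%. CACGTG, the E-box read by MYC, was also below its flanks at 1.62% against 2.45%, as was AGATAA, read by GATA factors, at 11.6% against 13.3%, although GATA letters stood in 9.67% of all merged regions and CACGTG in 2.93%. ETS (ACCGGAAG) matches stood in 11 windows (0.158%; flanks 0.100%, all merged regions 0.465%). TFAP2 (GCCTCAGGC or GCCTGAGGC) matches stood in 10 (0.144%; flanks 0.258%, all merged regions 0.576%). GRHL (AACCGGTT) stood in 1 (0.0144%; flanks 0.0144%, all merged regions 0.0865%).

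The members were compared with the 3 like classes for the 6 motifs, 18 differences in all, each with a Newcombe interval at the 99.7% level that corrects for their number. The interval left out 0 for 9 of them. Against regions of day 10 only, members had SOX matches 3.02 points more often (16.2% and 13.1%, interval 0.804 to 5.13), composites 1.45 points more often (4.55% and 3.10%, 0.234 to 2.56) and AP-1 1.97 points more often (6.10% and 4.13%, 0.584 to 3.25). KLF matches were less frequent, by a difference of −2.64 points (11.6% and 14.2%, −4.80 to −0.578). The composite call was lost with peaks at −log10 q of at least 2 (1.29 points, −0.0593 to 2.50). In windows of 100 bp the composite (0.791 points, −0.0975 to 1.57) and the KLF call (−1.14 points, −2.80 to 0.400) were lost too. With the higher-scoring 50% of each list, the composite (1.38 points, −0.588 to 3.15) and KLF (−3.14 points, −6.49 to 0.0297) calls were not kept either.

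Against regions of day 5 only, the order of KLF and AP-1 turned around. KLF matches were 3.37 points more frequent in members (11.6% and 8.21%, 1.80 to 4.93), and AP-1 matches less frequent, with a difference of −2.94 points (6.10% and 9.03%, −4.36 to −1.54). SOX differed by 0.2005 points (−1.75 to 2.13), the octamer by 0.333 (−0.718 to 1.37), the composite by −0.389 (−1.53 to 0.730) and TEAD by −0.278 (−1.41 to 0.828), with intervals that held 0. With only the higher-scoring 50% of each list, which leaves fewer regions, the KLF difference was 2.30 points (−0.00537 to 4.67) and the AP-1 difference −1.91 points, and neither call held. The members stood between the classes of 1 day for both KLF and AP-1. KLF ran from 8.21% through 11.6% to 14.2%, and AP-1 from 9.03% through 6.10% to 4.13%.

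Against ESC sites open on both days, which stay open in ESCs, members had fewer SOX matches (16.2% and 20.2%, −4.03 points, −6.91 to −1.30) and fewer TEAD matches (4.49% and 6.47%, −1.98 points, −3.80 to −0.398). AP-1 matches were more frequent (6.10% and 4.26%, 1.84 points, 0.205 to 3.26). Without windows over 50% repeat-masked, which were 15.4% of the ESC sites and 6.80% of the members, the SOX difference fell to −2.08 points (−5.12 to 0.757) and the TEAD difference to −1.43 points (−3.35 to 0.201), and neither call held. The SOX call was also lost with lists of equal size (−2.45 points, −5.07 to 0.0213) and the TEAD call in windows of 100 bp (−0.713 points, −2.02 to 0.328). Both were lost with the higher-scoring 50% of each list. The AP-1 call was lost with windows centred on the day 5 peak (1.55 points, −0.188 to 3.07) and in windows of 100 bp (1.09 points, −0.126 to 2.07). For KLF the difference was −1.86 points (−4.36 to 0.437), and it passed in 5 other settings, among them the day 5 or the day 10 peak as centre, at −3.62 and −3.41 points. The octamer and the composite had intervals that held 0, at 0.559 (−0.934 to 1.82) and 0.166 (−1.44 to 1.53) points.

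Within the members, some motif shares differed by peak strength, a value that the choice of members used, so this is a description. Members were split into quartiles of weaker-day fold enrichment (limits 2.97, 3.29 and 3.72, with 1742 members each). From the weakest to the strongest, composite matches went from 3.27% (2.53 to 4.22) through 4.36% and 4.08% to 6.49% (5.42 to 7.74). AP-1 matches went from 4.77% (3.86 to 5.87) to 8.44% (7.22 to 9.84) and SOX matches from 13.5% (11.97 to 15.2) to 18.1% (16.4 to 20.02). KLF matches went the other way, from 13.4% (11.9 to 15.1) to 9.59% (8.29 to 11.1). The share within 5 kb of a start site fell from 30.1% to 17.9% and GC content from 42.5% to 39.7%, so position and base composition moved with the KLF share. Their part in it was not tested.

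Members within 5 kb of a start site had KLF matches in 14.0% (12.3 to 15.8) and those farther away in 10.9% (10.1 to 11.8). The composite differed little, at 4.53% and 4.56%. Members with the higher fold enrichment at day 10 had nearly the same KLF share (11.55%) as the others (11.6%), and TEAD matches in 5.77% (4.66 to 7.14) against 4.18% (3.68 to 4.73).

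Matches of different factors also met in 1 window. SOX and KLF stood together in 120 windows (1.72%, 1.44 to 2.06), against 0.280% of the flanks and 0.909% of all merged regions. The like classes had 1.06% (day 5 only), 1.58% (day 10 only) and 2.47% (ESC sites open on both days). An octamer or composite met a KLF match in 43 (0.617%; flanks 0.0574%, all merged regions 0.270%). In the like classes this was 0.405%, 0.516% and 0.723%, in the same order. A separate or overlapping SOX match met an octamer or composite in 110 (1.58%; flanks 0.187%, all merged regions 0.618%). Whether matches met more or less often than their separate shares would give was not tested. All 3 kinds met in 10 windows and in no flanking window.

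A member lay within 50 kb of a start site for 4983 of 21938 protein-coding genes, or 22.7%, the background against which the counts of gene lists below are read. Any merged region lay so near for 92.5% of the genes, and 3730 of the 68945 regions in reach (5.41%) were members. For 3902 of the genes it was 1 member, and 25 genes had 5 or more.

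Most of the genes with the most members were long or had many start sites, whose reach is wider. Vps13d, a lipid transfer protein gene, had 7 of 29 regions within 50 kb, Magi2, a synaptic scaffold gene, 7 of 34 and Pde4d, a cAMP phosphodiesterase gene, 7 of 57. Pcdh15 had 6 of 14 and Lama4, a laminin chain gene, 6 of 18, the highest shares among the first 8. Plekha5, 2010111I01Rik and Ank3, which encodes a scaffold of axons and epithelia, also had 6. Begain (5 of 11), Oxct1, a ketone body enzyme gene (5 of 14), Tshr, the thyrotropin receptor gene (5 of 17), and Lgr4, an R-spondin receptor gene (5 of 23), followed. At Pcdh15 only 2 of the 14 regions had an ESC peak and 6 a MEF peak, while at Tshr 12 of 17 had an ESC peak.

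In all, 13 lists of genes were examined by how many had a member, beside the 22.7% of all genes. Among the genes of the introduced factors, Pou5f1, Sox2, Klf4 and Myc, none had a member within 50 kb, with 31 regions in reach. In the wider SOX, KLF and POU family it was 10 of 28 genes, and 6.95% of the regions in reach were members (95% interval 4.44 to 10.7). Sox6 had 5 members of 23 regions, Pou2f2, a B cell factor gene, 3 of 13, Klf12 2 of 16 and Pou1f1, a pituitary factor gene, 2 of 8. Of 12 genes of AP-1 members only Jund had one, with 0.862% of 116 regions (0.152 to 4.72).

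Neural lists were mixed. Of 38 genes of axon guidance and synaptic adhesion 16 had a member, and 7.82% of the regions in reach were members (95% interval from 5.50). Robo2, a SLIT receptor gene, had 4 of 11, Nrxn3, a presynaptic neurexin gene, 3 of 16 and Plxna2, a semaphorin receptor gene, 2 of 25. Members over gene bodies numbered 13 at Nrxn3, 9 at Cdh13 and 6 at Robo2. The list had 4.18 members per Mb of gene body against 3.39 for all protein-coding genes, and its median gene was 429 kb long against 17.4 kb. Of 34 neural transcription factor genes 8 had a member (5.08% of regions, 2.70 to 9.38), among them Sox21, Pou3f1 and Neurod1 with 1 each.

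In the signalling lists the share of genes with a member was above the 22.7% of all genes, and the share of regions in reach was near 5.41%. Of 45 WNT pathway genes 16 had a member (6.13% of regions, 4.22 to 8.83), with Lgr4 first, then Rspo3, the gene of an R-spondin ligand, at 3 of 8, Wnt5a at 2 of 6 and Lrp6, a WNT co-receptor gene, at 2 of 20. Of 27 JNK pathway genes 10 had one (5.82%, 3.67 to 9.12), with Mapk10, which encodes JNK3, at 5 of 16, and Map3k11, Dusp16 and Tnik at 2 each.

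Among lists of cell types, 10 of 24 epidermal and keratinocyte genes had a member (8.33% of regions, 4.94 to 13.7), with 2 each at Perp, Col17a1 and Lama3, all genes of epidermal adhesion, and 3 over the body of Trp63. Of 35 epithelial genes 13 had exactly 1 each (4.50%, 2.65 to 7.54), among them Epcam, Grhl2, Dsp and Esrp2. Fibroblast and mesenchymal genes had 11 of 28 (5.84%, 3.57 to 9.40), with 2 each at Prrx1, Col6a3, Tgfbr2 and Zeb2. Pluripotency genes had 7 of 28 (4.33%, 2.37 to 7.78), with Tet2, a 5-methylcytosine oxidase gene, at 3 of 15, Zfp296 at 2 of 11, and Zfp42 and Lin28a at 1. Muscle and heart genes had 6 of 24 (4.44%, 2.27 to 8.52), led by Tnnt2 at 3 of 14, and endoderm and trophoblast genes 4 of 24 (3.29%, 1.41 to 7.47), led by Tead4 at 2 of 13. The intervals of 11 of the lists held the 5.41% of all regions in reach, and those of axon guidance (above) and AP-1 members (below) did not. These intervals were not adjusted for the number of lists, nearby regions are not independent, and nearness does not assign a region to a gene.

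**Figure D5:**
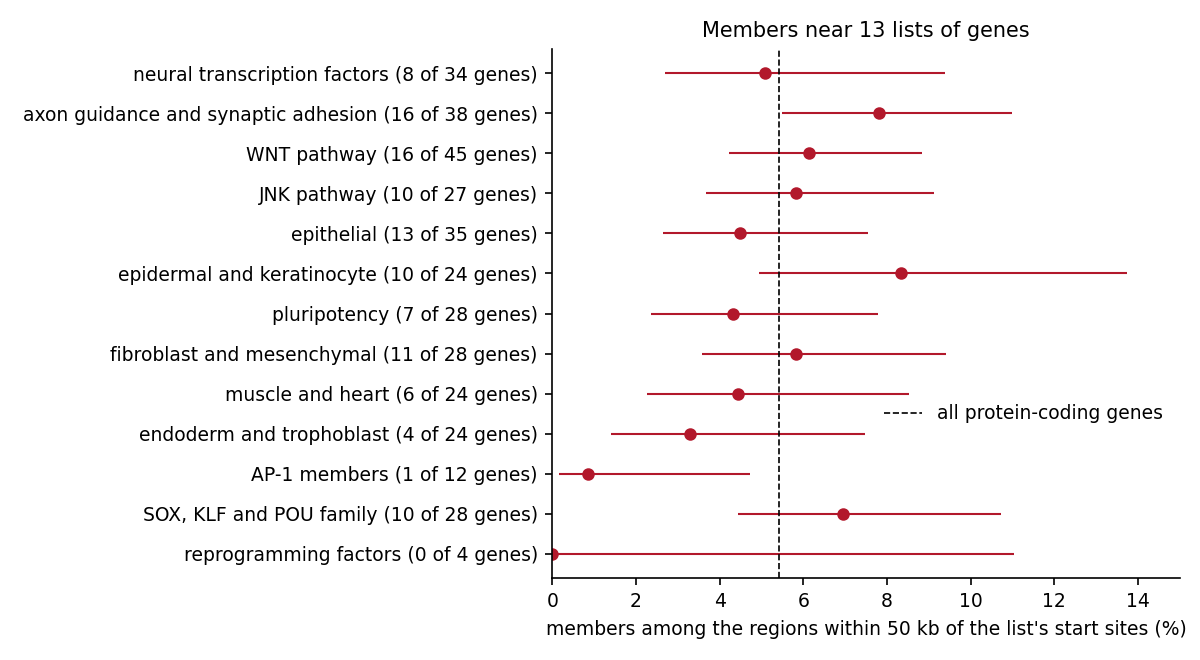
Share of the merged regions within 50 kb of a list's start sites that were members (x axis, percent) for 13 gene lists, with 95% Wilson intervals and the number of genes with a member in brackets. The dashed line is the share over all protein-coding genes, 5.41%. Most intervals hold the line, axon guidance lies above it at 7.82% with a lower limit of 5.50%, and AP-1 members lie below it at 0.862%.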

How the data were processed

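The regions and the gene and motif lists were chosen with earlier results of these data known. As stated by labels and methods, the authors mapped reads to mm10 with Bowtie2 (version 2.2.0 in the submitters' processing notes, another in the methods), removed reads of low mapping quality (with thresholds that differ between labels and methods), kept uniquely mapped reads and dropped mitochondrial ones. The ATAC-seq peak caller and any shift of read ends are not given in the sources used here. The authors deposited 1 peak list per group, which appears to hold what both libraries share, so replicates could not be compared, and read depth is unknown. Each peak has the authors' score, a deposited fold enrichment, which is a ratio to local background, and the deposited −log10 of its q-value (that of the p-value was not used). The smallest −log10 q lies just above 1. The score was used to rank peaks within a list. No column belonged to another series (0 columns).

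Groups came from sample titles. Peaks within 400 bp were merged. Position used the 132629 start sites of GENCODE mouse release 21, and sequence came from GRCm38. Motifs were searched in 200 bp windows and in windows 1 kb to each side. Shares have Wilson intervals, and differences have Newcombe intervals adjusted by Bonferroni over 18 motif and set pairs or over 3 sets. Scripts used Python 3.11.15, numpy 2.4.6 and matplotlib 3.10.9, and were tested on simulated data. Named were the 12 members with the highest weaker-day fold enrichment (windows at most 50% masked), the 12 protein-coding genes with most members within 50 kb, up to 4 genes per list with the most members, the 4 factor genes, the 5 longest runs and the top 10 8-base words. A few other genes of the lists were named after their values were seen. Sequences from chromosome 18 are not shown. Some genes that the rule names are not reported here. Alternatives are given in the closing section.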

Additional observations from a re-analysis of the deposited data

How the results depend on the processing

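No paired analysis was possible because the libraries numbered 1 and 2 stand in 1 list per group, and leaving out a replicate was not run for the same reason. The number of members (6968) stayed within 1.5 times under every alternative except the higher-scoring 50% of each list, which left 2941 members, 2469 genes with a member within 50 kb and 3 of the 9 called motif differences, from fewer regions. That setting moved SOX to 17.9%, KLF to 12.5% and AP-1 to 8.02% of windows. With lists cut by score to equal size, 24.5% of members lay within 5 kb of a start site, 4.06% had a composite and 12.5% a KLF match, and the cause was not tested.

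By construction, windows of 100 bp held fewer matches (SOX 8.35%, octamer 1.95%, composite 2.28%, KLF 6.34%, AP-1 3.13%, TEAD 2.14%, with 5 called differences) and windows of 300 bp more (22.1%, 5.88%, 6.27%, 15.9%, 8.88%, 6.85%). At most 1 changed letter left the composite in 0.388%. Start sites within 1 kb or 10 kb gave 6.49% or 36.2% of members, and protein-coding ones 12.7%. Reaches of 10 kb and 100 kb gave 1554 and 8064 genes. In all, 81 of these values stayed as reported and 28 moved. No difference changed sign with a call. Over all settings, the 9 called differences lost a call 15 times, and the KLF difference from ESC sites, not called, passed in 5. The SOX and AP-1 differences from regions of day 10 only held in every setting that gave them. Depth is unknown, so a region can lack a MEF or ESC peak where those libraries were shallow.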
